A study of Mus musculus with 12 samples.

Results

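The genes described here are 31 enzymes, regulators and a carrier of cholesterol and fatty acid synthesis, chosen by symbol from the known pathway. All 31 were found among the 13016 genes of the deposited expression table, Msmo1 under its older symbol Sc4mol. RNA was sequenced from mouse early thymic progenitors (ETPs), the most immature T-cell precursors of the thymus, in 12 libraries of 100 sorted C57BL/6 cells each. The control group (4 libraries) carried Ezh2 fl/fl and Runx1 fl/fl, with both genes flanked by loxP sites and no Cre in the label. The dKO group (4 libraries) carried the same floxed alleles with Rag1Cre+, which drives recombination from the lymphoid Rag1 locus, and the dKO_Flt3ITD group (4 libraries) carried these with a Flt3 ITD/+ allele, an activating internal tandem duplication of the Flt3 receptor found in leukaemias. Animal ages, and whether the 4 libraries of a group came from separate animals, were not stated in the labels. P-values therefore measure only the spread between these libraries.

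Cholesterol and fatty acids are both built from cytosolic acetyl-CoA, which ATP citrate lyase makes from citrate. The mevalonate steps turn it into isoprenoid units, the squalene steps join and cyclise these, and a last series of enzymes trims lanosterol to cholesterol. Transcription of most of these enzymes is driven by SREBP proteins. When sterols are scarce, Scap escorts SREBP from the endoplasmic reticulum to the Golgi, where it is cut and released to the nucleus; when sterols are plentiful, Insig proteins hold Scap back. Proliferating lymphoid cells are known to draw on this pathway for membrane.

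Reads recovered from the steps between low values totalled 12924981 to 32763597 per library. Levels are given in RPKM, a read count divided by transcript length and by library size, so levels of different genes are set per length. Ezh2 lay at 32.8 to 45.7 RPKM in control, 16.9 to 29.8 in dKO and 12.03 to 24.6 in dKO_Flt3ITD. Runx1 lay at 16.3 to 25.3, 35.9 to 58.2 and 32.6 to 58.8 RPKM; a value over the whole gene does not show whether the floxed exon was removed. Of the 15 ETP markers all were in the table, with sums of 771 to 1084 RPKM in control, 622 to 718 in dKO and 573 to 703 in dKO_Flt3ITD; Kit was 38.2 to 78.8 in every library, while Tcf7 was 4.08 to 42.4 in control and at most 0.814 in both mutant groups. Granulocyte and monocyte markers (7 of 10 listed were in the table) summed to 119 to 407, 139 to 321 and 119 to 1445 RPKM, the highest in dKO_Flt3ITD 4. Control 1 resembled the other libraries least, with a mean correlation of 0.786, while the rest stood at 0.8294 to 0.863.

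Promoter windows of 300 bases, 250 before and 50 after a gene's start, were found for 25 of the 31 genes in the RefSeq table (GRCm38.p6). Of these members 5 had more than 1 window. A gene was counted where any of its windows held the motif. Several of the members' promoters are known to bind NF-Y and Sp1 beside SREBP, and the letters of these sites were searched on both strands. The NF-Y box CCAAT was in 21 of 25 members (84%), against 43.7% of 8003 tested genes and 41.1% of 27025 genes of the table. At least 2 such boxes in the same window were found for 12 members, against 17.3% of tested genes. By role, the box was in 9 of 9 squalene and sterol enzymes, 5 of 6 mevalonate enzymes, 4 of 5 regulators and 3 of 5 fatty acid enzymes. The Sp1 box GGGCGG was in 20 members (80%, against 68.8% of tested genes), but in only 1 of 5 fatty acid enzymes. The E-box CACGTG was in 6 (24%, against 12.3%). The sterol element spelled TCACNCCAC was in 1 member, Hmgcs1 (4%, against 1.39%). Its shorter spelling CACNCCAC, which lies inside the longer, was in 3, namely Hmgcs1, Insig1 and Acat2 (12%, against 7.45%). A match is only a match of letters, and the absence of one in this window says nothing about binding.

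**Figure D1:**
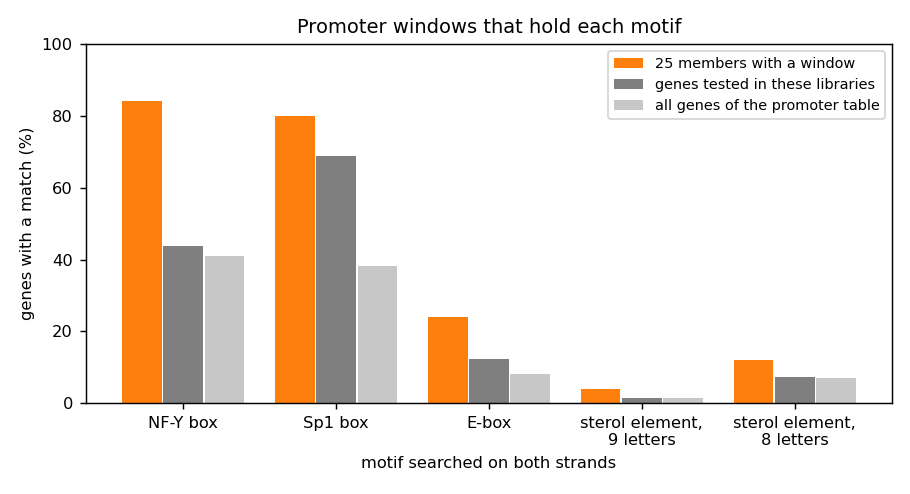
Share of genes (y axis, %) whose 300-base promoter window holds each motif (x axis), for the 25 members with a window, the genes tested in these libraries and all genes of the RefSeq promoter table. The NF-Y box stands at 84% of members against 43.7% of tested genes, and the 9-letter sterol element is near the bottom in all 3 sets.

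The 250 bases before the start that the table uses are shown for 5 members. For Fasn that start lies inside the annotated gene, downstream of its outermost 5′ end, so the Fasn stretch is also within the gene. Msmo1, Idi1 and Insig1 were those whose dKO_Flt3ITD libraries all lay below the dKO libraries, Fasn was one of 2 members placed the other way, and Hmgcs1 held the longer sterol element. Capitals mark CCAAT or its reverse complement ATTGG and either spelling of the sterol element on either strand.
Msmo1 (GRCm38.p6, chr8:64733579-64733828, minus strand): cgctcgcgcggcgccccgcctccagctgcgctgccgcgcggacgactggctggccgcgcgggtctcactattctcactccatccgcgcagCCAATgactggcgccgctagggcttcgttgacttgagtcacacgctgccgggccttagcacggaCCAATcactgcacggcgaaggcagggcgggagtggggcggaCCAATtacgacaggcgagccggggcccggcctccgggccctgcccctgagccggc
Idi1 (GRCm38.p6, chr13:8885356-8885605, plus strand): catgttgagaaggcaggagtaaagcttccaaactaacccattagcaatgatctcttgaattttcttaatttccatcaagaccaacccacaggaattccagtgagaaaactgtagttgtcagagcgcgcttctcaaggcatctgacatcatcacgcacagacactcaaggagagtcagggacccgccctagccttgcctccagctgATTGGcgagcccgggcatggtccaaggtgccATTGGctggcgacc
Insig1 (GRCm38.p6, chr5:28071162-28071411, plus strand): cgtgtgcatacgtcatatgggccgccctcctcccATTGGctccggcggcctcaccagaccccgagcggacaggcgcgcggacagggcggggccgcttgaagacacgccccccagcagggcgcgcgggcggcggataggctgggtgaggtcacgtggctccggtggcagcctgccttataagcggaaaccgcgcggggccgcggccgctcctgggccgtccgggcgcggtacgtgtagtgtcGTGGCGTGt
Hmgcs1 (GRCm38.p6, chr13:119690101-119690350, plus strand): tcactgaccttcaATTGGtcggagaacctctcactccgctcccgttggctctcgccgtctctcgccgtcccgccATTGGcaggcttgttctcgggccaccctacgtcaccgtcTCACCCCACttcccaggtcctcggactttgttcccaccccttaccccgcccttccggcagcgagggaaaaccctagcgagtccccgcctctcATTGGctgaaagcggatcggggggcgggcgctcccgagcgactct
Fasn (GRCm38.p6, chr11:120824548-120824797, minus strand): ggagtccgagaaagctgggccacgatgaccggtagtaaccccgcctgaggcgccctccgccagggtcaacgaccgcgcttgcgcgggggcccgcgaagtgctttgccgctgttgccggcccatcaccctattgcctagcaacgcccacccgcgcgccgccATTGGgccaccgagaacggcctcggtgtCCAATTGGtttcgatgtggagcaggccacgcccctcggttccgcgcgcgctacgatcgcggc
The Msmo1 stretch held 3 NF-Y boxes, that of Idi1 2, that of Insig1 1, that of Hmgcs1 3 and that of Fasn 3, of which a pair in Fasn shares letters on opposite strands. The longer sterol element of Hmgcs1 began 137 bases before its start, and the shorter spelling in Insig1 lay 9 bases before its start.

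Most of the pathway was expressed in all 3 groups. Group means above 10 RPKM were seen for 15 members in control, 18 in dKO and 16 in dKO_Flt3ITD, and means from 1 to 10 for 14, 11 and 14. Fdps, the farnesyl diphosphate synthase, had the highest mean of the members in every group, and Scd1, a stearoyl-CoA desaturase, the lowest. Scd1 was listed at 0 in 6 of 12 libraries and reached 1 RPKM in only 1 (2.31 in dKO_Flt3ITD 3), so it was left out of the tests; Tm7sf2 was just inside, with at least 1 RPKM in 5 libraries where 4 were required, followed by Hsd17b7 with 7. The other 30 members were tested. Spread within groups was wide, with a median coefficient of variation over members of 57.0% in control, 46.6% in dKO and 49.7% in dKO_Flt3ITD.

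**Figure D2:**
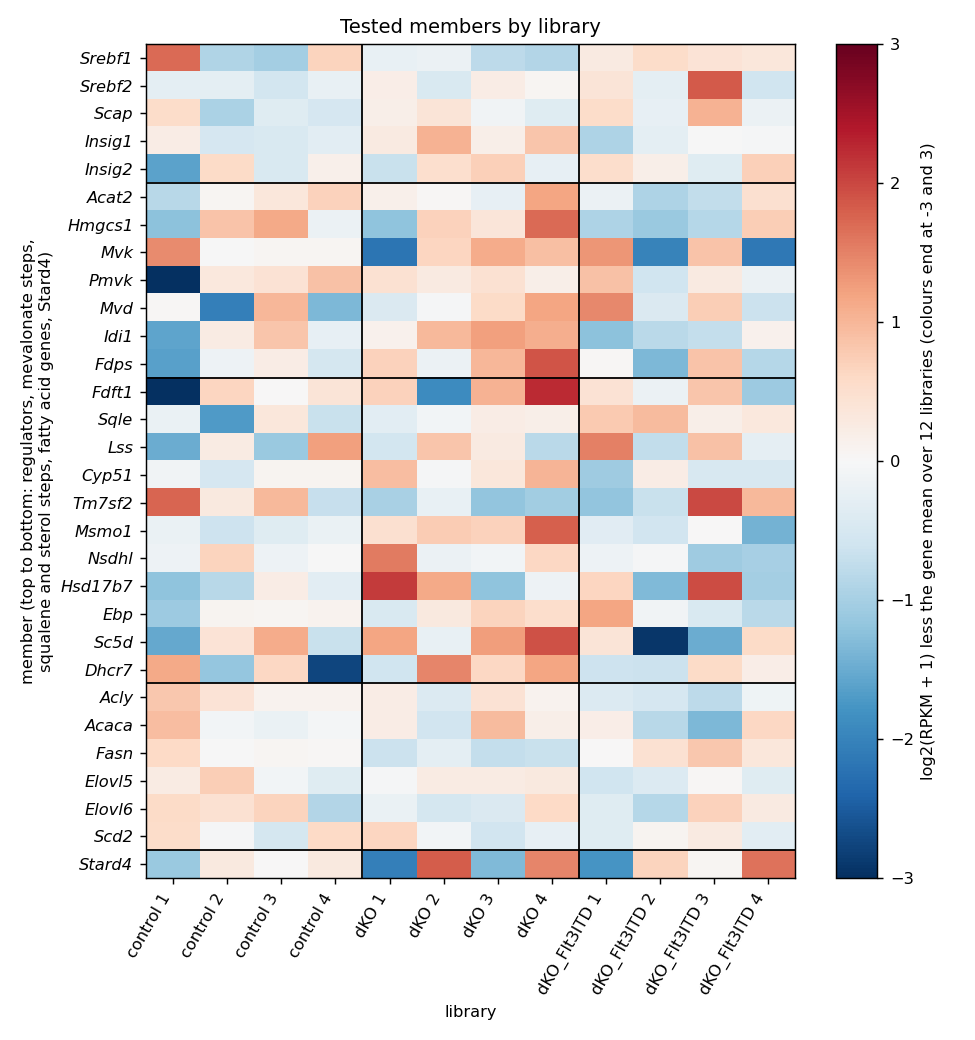
Heat map of the 30 tested members (y axis, ordered by role) in 12 libraries (x axis), coloured by log2(RPKM + 1) less the gene's mean over the libraries, with colours ending at -3 and 3. Control 1 is blue across many mevalonate steps (median deviation of those enzymes -1.23), and dKO 4 is red across them (1.17).

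The library pattern was uneven. The 18 sterol enzymes (7 mevalonate and 11 squalene and sterol steps) summed to 204, 377, 460 and 340 RPKM in control 1 to 4. The sums were 495, 445, 591 and 929 RPKM in dKO 1 to 4. In dKO_Flt3ITD 1 to 4 they were 444, 243, 386 and 281 RPKM. Each dKO sum thus lay above each dKO_Flt3ITD sum, though the nearest pair stood at 444.51 (dKO 2) and 444.16 RPKM (dKO_Flt3ITD 1), while control 3 lay above dKO 2. These sums were not scaled to a common total. Totals over all genes ran from 515638 RPKM (control 1) to 1.07e+06 (dKO_Flt3ITD 1), and dKO 2 stood at 554475. Of the 30 tested members 7 had their highest value in dKO 4 and 8 their lowest in control 1. The members' sums in the fatty acid branch ran from 118 to 187 RPKM in control, 120.2 to 152 in dKO and 93.9 to 133 in dKO_Flt3ITD.

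Between dKO and control, 16 of 18 sterol enzymes had a positive fitted log2 fold change of RPKM + 1, with a median of 0.73, whereas the fatty acid enzymes had 2 positive and 4 negative, with a median of -0.24. Over all 10690 tested genes 50.7% were positive and the median was 0.01. No member passed: 0 of 30 had an adjusted p under 0.05 by limma, where 1.02% of all tested genes did, and 0 by voom on the recovered reads. At an unadjusted p under 0.05 there were 4 positive members (Msmo1, Fdps, Idi1, Insig1), against 5.46% of all genes, and 1 negative (Tm7sf2), against 3.71%. Only Msmo1 had all dKO libraries above all control libraries (3.93% of all genes were so placed) and only Fasn had all below (2.38%). Without control 1 the sterol median was 0.45 with 13 of 18 positive and the fatty acid median -0.09, and without dKO 4 the sterol median was 0.51 with 14 positive. The fatty acid median was -0.15 without dKO 2. In bulk samples, fewer cells of a type and less RNA per cell cannot be told apart.

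Between dKO_Flt3ITD and dKO the order was the other way for the sterol branch. Of the 18 sterol enzymes 15 had a negative fold change, with a median of -0.61, among them all 7 mevalonate enzymes; the median of all genes was 0.00. No member passed by limma (0 of 30; 0% of all tested genes passed either) or by voom. At an unadjusted p under 0.05 there were 7 negative members (Msmo1, Idi1, Sc5d, Fdps, Nsdhl, Insig1 and Cyp51) and 1 positive (Fasn), against 4.01% and 3.70% of all genes. Msmo1, Idi1 and Insig1 had all dKO_Flt3ITD libraries below all dKO libraries (2.20% of all genes), and Srebf1 and Fasn had all above (2.08%). Without dKO 4 the sterol median was -0.42, with 13 of 18 negative.

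Between dKO_Flt3ITD and control the sterol enzymes were divided evenly, 9 positive and 9 negative, with a median of -0.04. No member passed by limma (0 of 30, against 1.50% of all genes) or by voom. At an unadjusted p under 0.05 there were 1 positive member, Sqle, against 7.63% of all genes, and 1 negative, Acly, against 5.79%. Acly was the sole member whose groups did not overlap, lower in dKO_Flt3ITD, where 3.51% of all genes were placed so, and 0 members were higher without overlap (4.16%). Without control 1, dKO 1 and dKO_Flt3ITD 1 the sterol median was -0.40, with 5 of 18 positive. The 3 comparisons share libraries pairwise, so opposite signs in the comparisons against dKO and from dKO are not separate evidence.

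**Figure D3:**
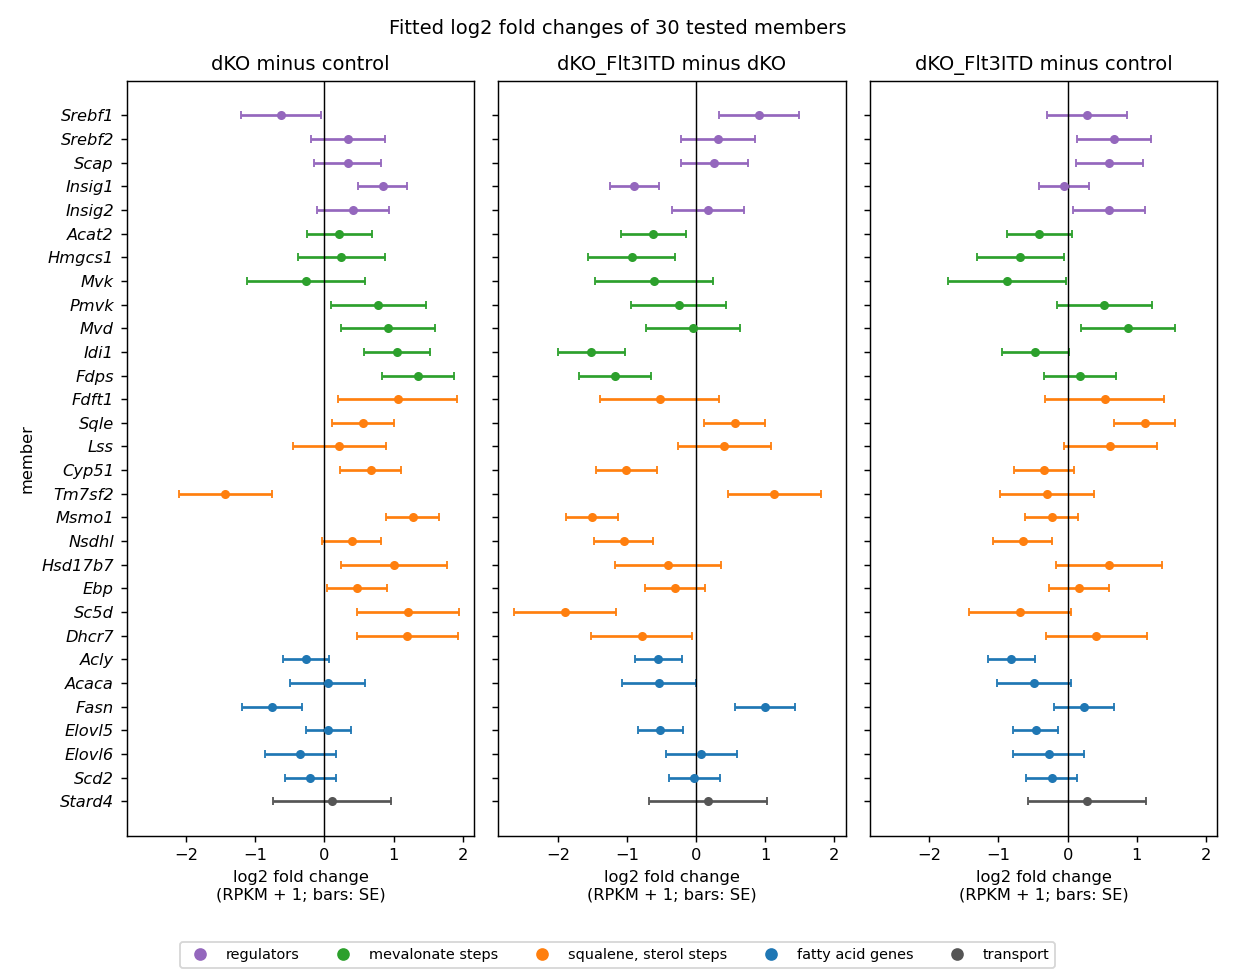
Fitted log2 fold change of RPKM + 1 (x axis, bars show the SE) for the 30 tested members (y axis), coloured by role, in 3 comparisons of 4 against 4 libraries. Sterol enzymes lie mostly right of 0 in dKO minus control (16 of 18) and mostly left in dKO_Flt3ITD minus dKO (15 of 18), and none of the members had an adjusted p under 0.05.

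Sums of other gene lists also differed between the groups. The 21 cell cycle genes were all in the table. They summed to 1068 to 1457 RPKM in control, 1115 to 1576 in dKO and 738 to 1056 in dKO_Flt3ITD. Each dKO_Flt3ITD library thus lay below each dKO library and each control library. The median log2 fold change of the cell cycle genes from control to dKO was -0.15, with 6 positive and 15 negative. From dKO to dKO_Flt3ITD it was -0.57, with 19 of 21 negative and 0 passing by limma. Later thymocyte markers (10 of 12 listed were in the table) summed to 36.5 to 71.4 RPKM in control, 106 to 177 in dKO and 16.5 to 94.5 in dKO_Flt3ITD, much of it Rag2, a recombination enzyme, at 52.5 to 129 RPKM in dKO. Of the 6 tested genes of that list 5 had a positive fold change from control to dKO and 5 a negative one from dKO to dKO_Flt3ITD, with 0 passing by limma. Cd4 was 0.0777 to 2.12 RPKM in control and 1.02 to 7.44 in dKO, and Il2ra had means of 11.2 ± 10.3 and 27.4 ± 19.6 RPKM (SD, n = 4). Other genes of that list were lower in dKO. The tested gene with a negative fold change from control to dKO was Ptcra, with means of 14.5 ± 9.28 and 5.87 ± 1.82 RPKM. Cd6, not tested, had means of 3.52 and 0.0177 RPKM in control and dKO. Cd3g was 0.108 to 5.05 RPKM in control and at most 0.0525 in every mutant library. Cd8a was 0.277 to 2.56 RPKM in control and at most 0.932 in every mutant library. Macrophage markers (9 of 11 listed) summed to 19.2 to 66.8, 47.8 to 141 and 50.4 to 156 RPKM. The part of these genes in the members' values was not tested.

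Among the regulators, Insig1, which holds Scap back when sterols are plentiful and is itself an SREBP target, had its highest mean in dKO. Its values were 35.3, 21.1, 21.7 and 23.9 RPKM in control, 36.4, 62.9, 34.5 and 54.1 in dKO, and 15.5, 24.4, 29.8 and 29.6 in dKO_Flt3ITD. Every dKO library lay above every dKO_Flt3ITD library, while control 1 lay among the dKO libraries. The means were 25.5 ± 6.63, 47.0 ± 13.8 and 24.8 ± 6.70 RPKM (SD, n = 4). The fitted log2 fold change was 0.84 (SE 0.36, adjusted p = 0.450) from control to dKO and -0.89 (SE 0.36, adjusted p = 0.567) from dKO to dKO_Flt3ITD, by limma. Insig1 (chr5:28071412-28078662) had the shorter sterol element and the E-box in its window.

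Srebf1 encodes the SREBP form best known for fatty acid genes. Of the 6 tested fatty acid enzymes, 2 were positive from dKO to dKO_Flt3ITD, Fasn among them, and 4 were negative. A link between Srebf1 and these enzymes was not tested. Srebf1 values were 16.2, 1.80, 1.60 and 7.37 RPKM in control, 3.496, 3.65, 2.07 and 1.86 in dKO, and 5.36, 6.65, 6.03 and 5.68 in dKO_Flt3ITD. All 4 dKO_Flt3ITD libraries lay above all 4 dKO libraries, and the control libraries spread over and beyond both. The log2 fold change from dKO to dKO_Flt3ITD was 0.91 (SE 0.58, adjusted p = 0.763, limma). Srebf2, which encodes the form best known for sterol genes, was 2.20, 2.21, 1.66 and 2.33 RPKM in control and 3.48, 1.85, 3.53 and 3.08 in dKO. In dKO_Flt3ITD it was 4.08, 2.18, 13.0 and 1.56 RPKM, so that 1 library carried most of the mean of 5.21 ± 5.32 (SD, n = 4). Its fold changes were 0.34 from control to dKO and 0.32 from dKO to dKO_Flt3ITD, both within 1 SE of 0 (SE 0.54).

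Scap, the escort protein, was 9.42, 2.69, 4.54 and 4.06 RPKM in control, 7.08, 8.30, 5.65 and 4.50 in dKO and 9.38, 5.03, 13.7 and 5.29 in dKO_Flt3ITD. Insig2, the second Insig isoform, which is not known as a strong SREBP target, was 2.51, 14.8, 6.69 and 10.8 RPKM in control, 5.74, 14.2, 16.6 and 7.91 in dKO and 14.3, 10.97, 7.21 and 16.4 in dKO_Flt3ITD. For both genes the groups overlapped in each comparison, and the fold change from dKO to dKO_Flt3ITD was 0.27 for Scap and 0.18 for Insig2. Of the 5 regulators 4 were positive from dKO to dKO_Flt3ITD, Insig1 alone being negative.

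In the mevalonate steps, Idi1, the isomerase that makes the allylic isoprenoid unit, was 8.42, 32.5, 49.3 and 23.0 RPKM in control, 29.97, 54.7, 65.6 and 59.97 in dKO and 11.03, 15.1, 16.4 and 29.96 in dKO_Flt3ITD. The dKO and dKO_Flt3ITD libraries did not overlap, but the nearest pair stood at 29.967 and 29.963 RPKM. The means were 28.3 ± 17.1, 52.6 ± 15.7 and 18.1 ± 8.21 RPKM (SD, n = 4). By limma, Idi1 had a log2 fold change of 1.05 (SE 0.48, adjusted p = 0.517) from control to dKO and -1.52 (SE 0.48, adjusted p = 0.407) from dKO to dKO_Flt3ITD. Without control 1 the former was 0.58. Idi1 (chr13:8885606-8892396) shares at least 95% identity over at least 300 bases with transcripts of 3 other genes, so reads may be split between them and its level is uncertain.

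Fdps, which joins the isoprenoid units to farnesyl diphosphate, was 22.6, 64.7, 84.3 and 49.7 RPKM in control, 115, 63.2, 143 and 266 in dKO and 73.2, 27.6, 129.5 and 38.8 in dKO_Flt3ITD. The groups overlapped, since dKO 2 lay below 2 control libraries. The log2 fold change from control to dKO was 1.36 (SE 0.52, adjusted p = 0.368) and from dKO to dKO_Flt3ITD -1.18 (SE 0.52, adjusted p = 0.612) by limma. It is the most uncertain member for shared reads, with 5 other genes that resemble it at that identity. Hmgcs1, the synthase that makes the precursor of mevalonate, was 9.15, 42.2, 51.9 and 20.0 RPKM in control, 9.30, 37.8, 29.8 and 77.1 in dKO and 11.7, 10.001, 12.1 and 39.1 in dKO_Flt3ITD. Its 3 groups overlapped, and its fold changes were 0.24 and -0.93 in the same order (SE 0.63). Its window held both the sterol element and NF-Y boxes, printed above. For Acat2, Mvk, Pmvk and Mvd the fold changes from dKO to dKO_Flt3ITD ran from -0.62 to -0.04, and Mvk was listed at 0 in dKO 1.

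In the sterol steps, Msmo1, the oxidase that starts removal of the C4 methyl groups from lanosterol derivatives, gave the clearest separation of the members. It was 36.3, 26.5, 31.8 and 35.9 RPKM in control, 58.1, 70.5, 67.9 and 145 in dKO and 32.4, 27.5, 42.1 and 14.98 in dKO_Flt3ITD. All dKO libraries lay above the other 8, and the control and dKO_Flt3ITD libraries overlapped. The means were 32.6 ± 4.57, 85.4 ± 40.2 and 29.2 ± 11.3 RPKM (SD, n = 4). Msmo1 had a log2 fold change of 1.28 from control to dKO (SE 0.38, adjusted p = 0.154) and -1.51 from dKO to dKO_Flt3ITD (SE 0.38, adjusted p = 0.261) by limma. With array weights, which give noisy libraries less influence, the former was 1.45 with an adjusted p of 0.029, the sole call of a member in any setting; over all 20 alternatives the adjusted p ran from 0.029 to 0.439. Without dKO 4 the log2 fold change from control to dKO was 0.99. No transcript of another gene resembled Msmo1 (chr8:64718123-64733578) at 95% identity.

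**Figure D4:**
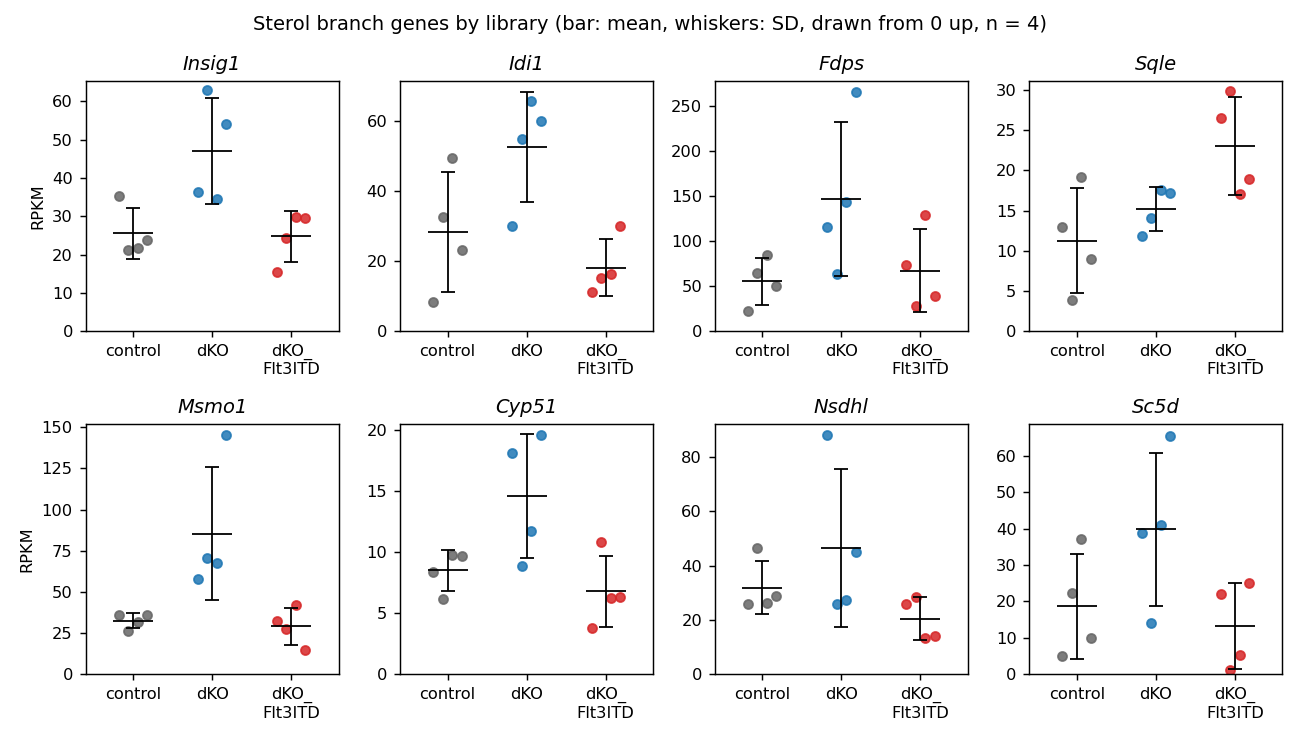
RPKM (y axis, linear) of Insig1 and 7 sterol branch enzymes in each library, by group (x axis); points are the 4 libraries, the bar is the mean and the whiskers are the SD, drawn only from 0 up. The Msmo1 points of dKO lie from 58.1 to 145, above the highest control (36.3) and the highest dKO_Flt3ITD library (42.1).

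Nsdhl, Cyp51 and Sc5d had fold changes of the same signs as Msmo1, with groups that overlapped. Nsdhl, the sterol dehydrogenase that acts after Msmo1, was 25.97, 46.5, 26.1 and 28.9 RPKM in control, 88.1, 25.8, 27.3 and 44.9 in dKO and 26.04, 28.3, 13.3 and 14.1 in dKO_Flt3ITD. Its log2 fold change from dKO to dKO_Flt3ITD was -1.05 (SE 0.43, adjusted p = 0.583, limma), and -0.69 without dKO 1. Cyp51, the lanosterol demethylase, which acts before Msmo1, was 8.40, 6.14, 9.77 and 9.71 RPKM in control, 18.1, 8.90, 11.8 and 19.5 in dKO and 3.804, 10.8, 6.27 and 6.30 in dKO_Flt3ITD. Here 1 dKO_Flt3ITD library overlapped the dKO range and the fold change was -1.01 (SE 0.44, adjusted p = 0.612, limma). Sc5d, a desaturase near the end of the pathway, was 5.05, 22.4, 37.1 and 10.04 RPKM in control, 38.7, 14.1, 40.9 and 65.4 in dKO and 21.9, 1.31, 5.31 and 24.99 in dKO_Flt3ITD. Its fold change was -1.90, with an SE of 0.74 (adjusted p = 0.564, limma), and -1.21 without dKO_Flt3ITD 2.

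Sqle, Lss and Tm7sf2 were the sterol enzymes with a positive fold change from dKO to dKO_Flt3ITD. Sqle, squalene epoxidase, a known control point of the pathway, was 13.0, 3.91, 19.2 and 8.996 RPKM in control, 11.8, 14.1, 17.6 and 17.2 in dKO and 26.6, 29.8, 17.0 and 18.9 in dKO_Flt3ITD. The dKO_Flt3ITD values reached highest, though 1 lay within the dKO range and 2 within the control range. The log2 fold change from control to dKO_Flt3ITD was 1.11 (SE 0.44, adjusted p = 0.270, limma), and it was 0.73 without control 2. Lss, lanosterol synthase, was 0.202, 2.99, 0.556 and 6.89 RPKM in control, 1.27, 5.02, 3.04 and 0.917 in dKO and 8.50, 1.02, 5.17 and 1.78 in dKO_Flt3ITD. Its groups overlapped throughout, with fold changes of 0.21 from control to dKO and 0.41 from dKO to dKO_Flt3ITD. Tm7sf2, a sterol reductase, was at most 0.932 RPKM in dKO, against 0.398 to 6.66 in control and 0 to 8.02 in dKO_Flt3ITD, and had a log2 fold change of -1.43 from control to dKO (SE 0.68, adjusted p = 0.541, limma). Fdft1, Hsd17b7, Ebp and Dhcr7 were each positive from control to dKO and negative from dKO to dKO_Flt3ITD, and all 4 overlapped between groups.

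Fasn, the fatty acid synthase, had fold changes opposite in sign to those of most sterol enzymes. The sterol enzyme Tm7sf2 had the same signs as Fasn, at -1.43 from control to dKO and 1.13 from dKO to dKO_Flt3ITD. Fasn was 7.52, 4.62, 4.91 and 4.80 RPKM in control, 2.58, 3.61, 2.45 and 2.53 in dKO and 4.69, 6.80, 8.85 and 6.17 in dKO_Flt3ITD. All dKO libraries lay below all others, and control and dKO_Flt3ITD overlapped. The means were 5.46 ± 1.38, 2.79 ± 0.547 and 6.63 ± 1.73 RPKM (SD, n = 4). Fasn had a log2 fold change of -0.76 from control to dKO (SE 0.43, adjusted p = 0.689) and 0.99 from dKO to dKO_Flt3ITD (SE 0.43, adjusted p = 0.612) by limma. Fasn (chr11:120805958-120825166) has 3 NF-Y boxes in the printed stretch, as Msmo1 does, and neither spelling of the sterol element nor the Sp1 box.

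**Figure D5:**
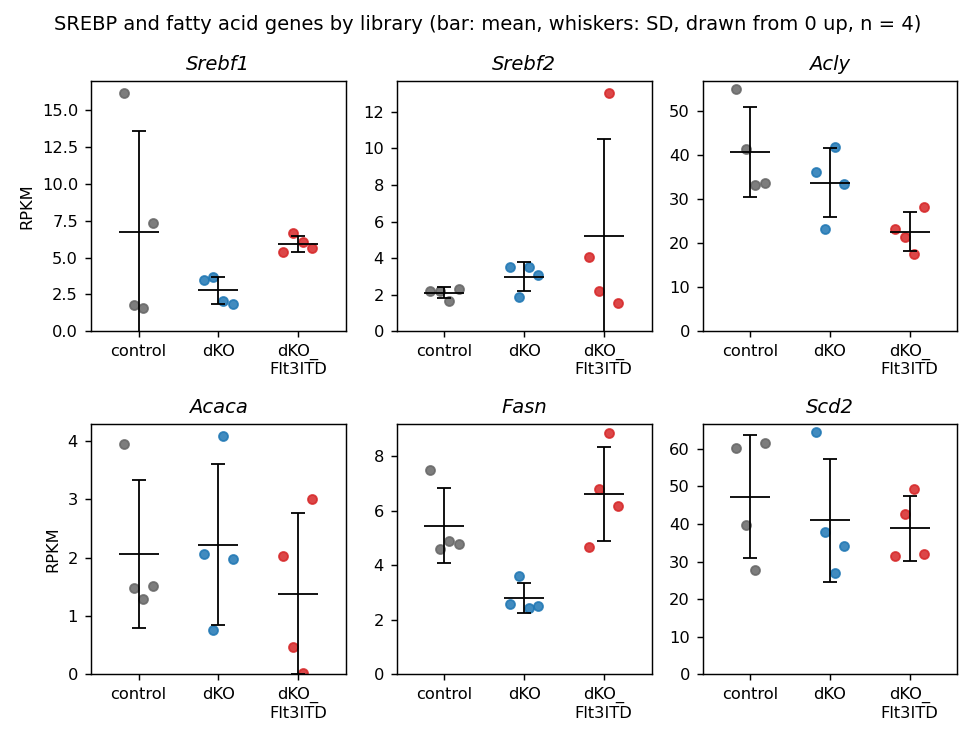
RPKM (y axis, linear) of Srebf1, Srebf2 and 4 fatty acid enzymes in each library, by group (x axis); points are the 4 libraries, the bar is the mean and the whiskers are the SD, drawn only from 0 up. Fasn in dKO lies at 2.45 to 3.61, below the other groups, and Acly in dKO_Flt3ITD lies at 17.6 to 28.3, below control.

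Acly, which supplies the acetyl-CoA for both branches, was 55.0, 41.4, 33.2 and 33.6 RPKM in control, 36.2, 23.2, 41.9 and 33.5 in dKO and 23.1, 21.4, 17.6 and 28.3 in dKO_Flt3ITD. All dKO_Flt3ITD libraries lay below all control libraries, and dKO overlapped both. The log2 fold change from control to dKO_Flt3ITD was -0.81 (SE 0.34, adjusted p = 0.291, limma). Acaca, the acetyl-CoA carboxylase that commits carbon to fatty acids, was 3.95, 1.49, 1.30 and 1.52 RPKM in control, 2.07, 0.756, 4.08 and 1.97 in dKO and 2.03, 0.475, 0.0314 and 3.01 in dKO_Flt3ITD. It overlapped in all 3 comparisons, at a log2 fold change of -0.54 from dKO to dKO_Flt3ITD. Scd2, a paralogue of Scd1, was 60.1, 39.7, 27.8 and 61.4 RPKM in control, 64.5, 38.0, 27.1 and 34.2 in dKO and 31.4, 42.7, 49.3 and 32.1 in dKO_Flt3ITD, with fold changes of -0.21 and -0.02 in the order above. The elongases Elovl5 (27.3 to 70.1 RPKM over the libraries) and Elovl6 (3.43 to 12.1) also overlapped between groups. Hmgcs1, Acat2, Fdft1, Acaca, Elovl6 and Scd2 also had at least 1 other gene that resembled them at 95% identity and are uncertain in the same way as Idi1 and Fdps. Stard4, which carries cholesterol between membranes, ran from 0.0201 to 14.0 RPKM, with both extremes in dKO.

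Genes around these enzymes were listed in the same way. Of the 12 tested genes of other sterol and isoprenoid synthesis none passed in any comparison, 10 being positive from control to dKO and 8 negative from dKO to dKO_Flt3ITD. The single gene that passed among the 85 tested in the related lists was Slc25a1, the mitochondrial carrier exporting the citrate used by Acly. It passed from control to dKO_Flt3ITD, where 1.50% of all tested genes passed, so a single call is near that background. It was 5.98, 3.86, 10.2 and 1.40 RPKM in control, 12.4, 17.6, 23.3 and 15.5 in dKO and 36.8, 14.6, 43.5 and 56.2 in dKO_Flt3ITD. Every mutant library lay above every control library, and the mutant groups overlapped. It rose by a log2 fold change of 2.67 from control to dKO_Flt3ITD (SE 0.51, adjusted p = 0.011, limma), and was at 1.70 in dKO (SE 0.51, adjusted p = 0.169). Over 20 alternatives the former adjusted p ran from 0.0074 to 0.110, and it did not pass by voom (0.110) or without control 1, dKO 1 and dKO_Flt3ITD 1 (0.058). It was 1 of 19 tested genes of other fatty acid synthesis, elongation, desaturation and activation. None passed in any comparison among the lists of SREBP processing (10 tested), sterol uptake and transport (12), LXR, efflux and esterification (11) and fatty acid oxidation (21). Over all tested genes 1.02% passed from control to dKO, 1.50% from control to dKO_Flt3ITD and 0% from dKO to dKO_Flt3ITD.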

How the data were processed

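Per the labels' protocols, 100 cells were sorted into lysis buffer for each library and full-length cDNA was made with SMARTer. TopHat2 2.0.10, SAMtools 0.1.19, HTSeq 0.5.4p5 and the build mm10 are named in the submitters' processing notes. The authors deposited RPKM values as 1 table of 13016 genes in 12 libraries; the total they divided by, strand setting and treatment of multiply mapped reads were not given in the sources used here. Groups came from sample titles and columns from sample descriptions. Steps between low RPKM values gave whole reads for 99.96% of genes (within 0.001), and 12924981 to 32763597 reads per library. Depth limits counting error only, since amplified reads are not independent molecules.

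A gene was tested where 4 or more of the 12 libraries reached 1 RPKM (10690 genes), with limma 3.58.1 (R 4.3.3, two-sided, intensity trend) on log2(RPKM + 1), fitted jointly to the 3 groups (9 residual degrees of freedom). P-values were adjusted by Benjamini-Hochberg over all tested genes, with a threshold of 0.05. Fold changes are on that log2 scale, so those of low genes are understated. The limma fit was tested on simulated data with independent, normally distributed spread and known shifts added to the dKO libraries. Groups did not overlap where all 4 libraries of a group lay above all 4 of another. Per-library values are given for members without overlap in any comparison and for a fixed set of regulators and enzymes, and for up to 4 genes of each related list that passed or did not overlap; those of Nsdhl, Cyp51, Sc5d and Fdps were added after their values were seen. Some items that the rule gives are not reported here. Promoter windows came from RefSeq (GRCm38.p6), and transcripts for the identity search from GENCODE M21. Members, lists and alternatives were chosen with earlier results of these data known. The alternatives were other pseudocounts, filters, scalings and variance models, fits of 8 libraries, a replicate block, leaving out libraries and, chosen after seeing the data, voom on the recovered reads. A planned test with edgeR was not run, and voom was used in its place.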

Additional observations from a re-analysis of the deposited data

Results flagged for a closer look

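Of 93 sets of 4 libraries (31 members in 3 groups), 10 (10.8%) had 1 library far from the other 3. In these, the gap to its neighbour, as a share of the whole range, was above Dixon's critical value. For normally distributed values chance does so in about 1 in 20. That rate is no measure for these RPKM, which were taken on a linear scale and include Scd1 in control with 3 values at 0. No explanation was tested for any of these 10 sets. In control 1, Mvk was 11.3 RPKM against 3.51 to 3.78 in the other control libraries. Acaca was 3.95 RPKM there against 1.30 to 1.52, and Fasn 7.52 against 4.62 to 4.91. Ebp, the sterol isomerase, was low in that library, at 25.8 RPKM against 58.7 to 59.9. In control 2, Nsdhl was 46.5 RPKM against 25.97 to 28.9. In control 3, Scd1 was 0.0414 RPKM where the other 3 were listed at 0. In dKO 4, Msmo1 was 145 RPKM against 58.1 to 70.5. In dKO 2, Fasn was 3.61 RPKM against 2.45 to 2.58, and in dKO 1 Elovl5 was 40.7 against 50.0 to 51.1. In dKO_Flt3ITD 4, Hmgcs1 was 39.1 RPKM against 10.001 to 12.1; that library also had the highest granulocyte and monocyte marker sum, with Mpo at 721 RPKM, and the part of this in the Hmgcs1 value was not tested.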

How the results depend on the processing

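No log2 fold change of a gene followed here changed sign in any of 20 alternatives. These genes were the members with an unadjusted p under 0.05 by limma or no overlap, each in that comparison, and Slc25a1. They were chosen for their differences in these same data, so an unchanged sign was likely in advance and is not separate evidence. The signs of the other members were not followed. The sterol enzyme median from control to dKO_Flt3ITD did change sign, from -0.04 to 0.18 without dKO_Flt3ITD 4. The members called stayed at 0 in every comparison and alternative, except for 1 (Msmo1) from control to dKO with array weights. Over the whole table, genes called from control to dKO (109) were 64 without a filter, 210 with array weights, 5 by voom, 45 without control 1, dKO 1 and dKO_Flt3ITD 1, and 58 to 95 leaving out 1 library. From control to dKO_Flt3ITD (160) they were 91 without a filter, 27 by voom, 105 without those 3 libraries and 94 to 187 leaving out 1. From dKO to dKO_Flt3ITD (0) they were 3 at a pseudocount of 4, 2 at the same RPKM sum or with array weights, 1 without a filter, at 5 RPKM, at the same median, with 8 libraries alone or without those 3 libraries, and 0 to 6 leaving out 1. The causes were not tested. The sterol enzyme median ran from 0.45 to 0.96 for dKO against control, -0.88 to -0.42 for dKO_Flt3ITD against dKO, and -0.40 to 0.18 for dKO_Flt3ITD against control; positive sterol enzymes numbered 13 to 17, 2 to 5 and 5 to 10. Scaling to the same RPKM sum moved the median of all genes to -0.11, -0.09 and -0.21 in that order, beside sterol medians of 0.61, -0.79 and -0.23. Tm7sf2 from control to dKO was -4.19 by voom and -0.65 at a pseudocount of 4, and had no value at the 5 RPKM filter. At a pseudocount of 4 Fasn was -0.47 from control to dKO and 0.64 from dKO to dKO_Flt3ITD, and Srebf1 was 0.56 in the latter.

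The replicate block gave 85, 116 and 0 calls over the whole table in the order of the first paragraph and 0 members called. Libraries of the same number deviated together with correlations of -0.147 to 0.126, so the numbers were not taken to pair them. The planned edgeR test was not run. With 100 cells per library and a wide spread between libraries, a call of 0 members does not show that no member differed. The size of difference that could be detected is not given here. Msmo1 was not called by limma at a log2 fold change of 1.28 from control to dKO (SE 0.38, adjusted p = 0.154).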

Other observations

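The genes below are those of the related lipid lists whose groups did not overlap and which did not pass the test. Over the 85 tested genes of those lists, 5 did not overlap between dKO and control (5.88%, against 6.30% of all tested genes), 5 between dKO_Flt3ITD and control (5.88% against 7.67%) and 4 between dKO_Flt3ITD and dKO (4.71% against 4.28%), so these counts are near or below the background. Gramd1a, which moves cholesterol from the plasma membrane to the endoplasmic reticulum, was 86.5, 41.4, 36.7 and 49.1 RPKM in control, 12.7, 23.4, 10.7 and 18.8 in dKO and 17.9, 22.2, 15.2 and 26.7 in dKO_Flt3ITD. All 8 mutant libraries lay below all control libraries, with a log2 fold change of -1.62 in dKO (SE 0.38, adjusted p = 0.053) and -1.29 in dKO_Flt3ITD (SE 0.38, adjusted p = 0.120, limma). Soat1, which esterifies cholesterol for storage, was 9.24, 5.58, 8.60 and 8.65 RPKM in control and 0.713, 2.94, 1.47 and 0.987 in dKO, with no overlap. In dKO_Flt3ITD it was 3.66, 2.12, 1.90 and 6.72 RPKM, and its log2 fold change from control to dKO was -1.89 (SE 0.49, adjusted p = 0.085, limma). Rxra, the partner of LXR, was 0.0762 to 1.49 RPKM in control and 1.89 to 6.70 in dKO, and Ggps1, the geranylgeranyl diphosphate synthase, was 19.9 to 32.3 in dKO and 6.95 to 19.2 in dKO_Flt3ITD.

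The dehydratase Hacd1, of fatty acid elongation, was 10.9 to 24.8 RPKM in control and 29.9 to 57.5 in dKO_Flt3ITD (log2 fold change 1.23, adjusted p = 0.120, limma). Elovl7, an elongase, was 0.111 to 0.807 and 1.15 to 3.83 RPKM in the same groups. Hacd2, a second dehydratase, was 1.22 to 6.07 RPKM in dKO and 7.06 to 12.2 in dKO_Flt3ITD. Of the fatty acid oxidation genes, Etfb, an electron carrier subunit, was 90.9 to 255 RPKM in control, 229 to 299 in dKO and 332 to 687 in dKO_Flt3ITD, the last above every other library (log2 fold change from control 1.26, adjusted p = 0.083, limma). Eci1, an enoyl-CoA isomerase, was 36.7 to 67.8 RPKM in dKO and 73.4 to 125 in dKO_Flt3ITD, and Acaa2, a thiolase, was 42.0 to 53.2 in control and 55.9 to 87.0 in dKO.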
